A study of Homo sapiens with 18 samples.

Results

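BT-549 and MDA-MB-436 are cell lines of triple-negative breast cancer (TNBC), a disease defined by low estrogen receptor, progesterone receptor and HER2. Their unsilenced states were compared here, as the starting points from which MUC1, PBRM1 and IRF1 were silenced in the study. The comparison used 6 of the 18 libraries, namely 3 of BT-549 cells with a stable control shRNA, grown beside the IRF1-silenced cells, and 3 of MDA-MB-436 cells carrying tet-MUC1shRNA, an inducible MUC1 hairpin, that were labelled DOX- and kept in 0.1% DMSO as vehicle. A further 3 libraries of BT-549 cells, titled as controls for the PBRM1 hairpin, served as a check. Their titles and column names do not name a control shRNA. In its chromatin assays the paper set PBRM1-silenced cells beside control shRNA cells. Cells transduced with hairpin vectors were selected in puromycin. All cells were grown in RPMI medium with 10% FBS, and the BT-549 medium also held insulin at 10 µg/ml. BT-549 is BRCA1 wild-type and MDA-MB-436 BRCA1 mutant. Triplicate cultures were sequenced, and each line was measured in its own tables. The line, the medium, the hairpin vector and the library batch therefore cannot be told apart between BT-549 and MDA-MB-436. Total RNA was made into stranded mRNA libraries, and the values are TPM, a transcript level corrected for transcript length and library total, rescaled here to 1000000 a library after short noncoding RNAs were left out.

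Epithelial cells hold together through cadherins, desmosomes and tight junctions and carry keratin filaments, whereas mesenchymal cells carry vimentin and secrete fibrillar collagen. Many TNBC lines occupy places between these states, through the epithelial-mesenchymal transition (EMT). Type I and type II interferons (IFNs) act through STAT and IRF factors at interferon-stimulated response elements (ISREs), and the induced genes encode antiviral and antigen-presenting proteins.

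Of 25379 genes in all 3 tables, 14152 reached 1 rescaled TPM in at least 3 of 9 libraries and were compared. A gene was called when the mean log2(rescaled TPM + 1) of MDA-MB-436 differed by at least 2 from each BT-549 control group in the same direction and its 3 values lay outside all 6 BT-549 values. By this rule 873 genes were higher in MDA-MB-436 cells (6.17% of those compared) and 464 were higher in BT-549 cells (3.28%). The same size of difference without overlap separated the 2 BT-549 control groups from each other at 235 genes (1.66%), of which 192 (1.36%) were higher and 43 (0.304%) lower in the PBRM1 experiment. The shares of 6.17%, 3.28% and 1.66% are the background for every list count below, and some genes are in more than 1 list. Both comparisons with BT-549 share the MDA-MB-436 libraries. No test was run between the lines, since their tables were scaled separately, and an SE beside a difference covers only the spread among triplicate cultures. Differences are given as MDA-MB-436 minus BT-549 on the log2(rescaled TPM + 1) scale, which understates changes of low genes, and their median over all genes compared was 0.27 against the IRF1 experiment and 0.17 against the PBRM1 experiment.

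The libraries were alike within groups and differed most between lines, with Pearson correlations across genes of 0.994 to 0.999 within a group, 0.955 to 0.957 between the BT-549 groups and 0.764 to 0.815 between the lines. Short noncoding RNAs took 84.8% to 87.9% of the deposited TPM in the BT-549 controls of the IRF1 experiment, 76.6% to 79.3% in those of the PBRM1 experiment and 12.1% to 15.2% in MDA-MB-436 cells. Of 25 housekeeping genes, 1 was called, namely YWHAZ, a 14-3-3 adaptor, with 1037 ± 48.1 (SD, n = 3) rescaled TPM in the IRF1 experiment and 190 ± 4.84 in MDA-MB-436 cells. None of 38 cell cycle genes was called, though 5 were higher in MDA-MB-436 cells against the PBRM1 experiment alone. In 19 of the 38 all MDA-MB-436 values lay above all 6 BT-549 values, which held for 44.2% of all genes compared. Cell cycle genes summed to 5629 to 5907 rescaled TPM in the IRF1 experiment, 3464 to 3537 in the PBRM1 experiment and 7837 to 8022 in MDA-MB-436 cells. Replication-dependent histone genes, whose transcripts lack poly(A) tails, summed to 70500 to 75516 rescaled TPM in the IRF1 experiment, 20213 to 21595 in the PBRM1 experiment and 34788 to 35678 in MDA-MB-436 cells, and 29 of 57 differed between the BT-549 groups. The part of library preparation in these differences was not tested.

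**Figure D1:**
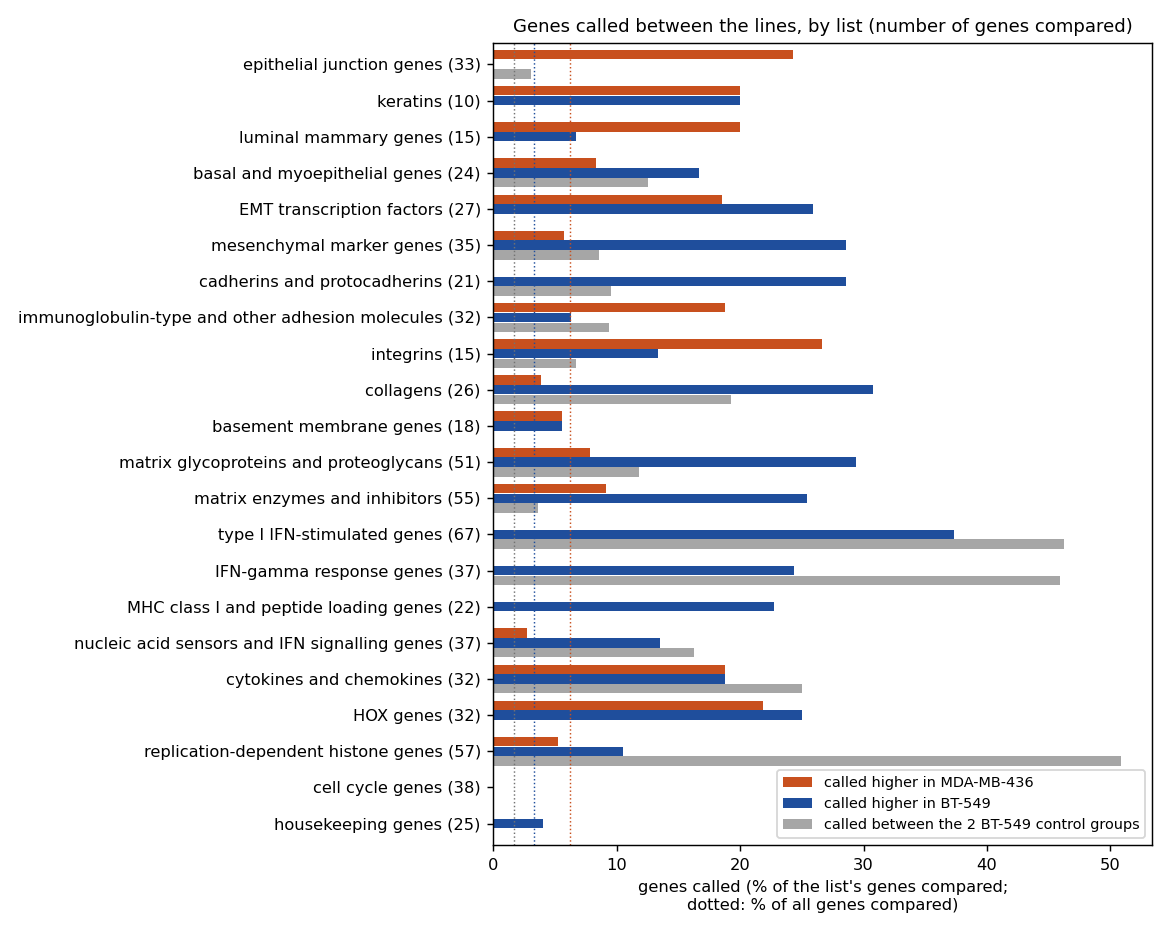
Percent of the genes compared in each of 22 lists (number compared in parentheses) that were called higher in MDA-MB-436 (orange), higher in BT-549 (blue) or different between the 2 BT-549 control groups (grey), with the percentages over all 14152 genes as dotted lines. Mesenchymal, matrix and IFN lists have long blue bars, and the type I IFN, IFN-gamma and histone lists have still longer grey bars, from 1 line measured in separate tables.

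Of the receptors that define TNBC, ESR1 and PGR were near 0 in both lines and ERBB2 was expressed at similar levels. ESR1, the estrogen receptor, had mean levels of 0.00284 rescaled TPM in the IRF1 experiment and 0.0329 in MDA-MB-436 cells, and was listed at 0 in the 3 libraries of the PBRM1 experiment. PGR, the progesterone receptor, did not exceed 0.0670 in any of the 9 libraries. ERBB2, which encodes HER2, was at 18.8 ± 0.839 and 26.5 ± 0.421 in the BT-549 groups and 22.0 ± 1.19 in MDA-MB-436 cells, between them. Among markers of other cell types, 2 of 20 leukocyte, 2 of 11 endothelial and 6 of 18 adipocyte, neural and melanocyte markers reached the filter. CD3E and HBB were listed at 0 in all 9 libraries, PTPRC did not exceed 0.206, and the summed leukocyte list, at 61.6 to 68.0, 149.8 to 154 and 124 to 134 in the 3 groups, was nearly all CD68, a lysosomal protein. Summed endothelial markers were at 5.90 to 6.55, 9.53 to 10.8 and 3.84 to 4.59. The adipocyte, neural and melanocyte list summed to 584 to 623, 315 to 327 and 807 to 854, mostly TUBB3, a tubulin, and its 1 called gene was NEFL, a neurofilament subunit, with 13.1, 10.7 and 11.7 in MDA-MB-436 cells and listed at 0 in the 6 BT-549 libraries. TUBB3 was at 577 and 288 on average in the BT-549 groups and 779.6 in MDA-MB-436 cells.

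Most listed tumour suppressor genes were not called. Of 12 compared, 1 was higher in MDA-MB-436 cells and 2 in BT-549 cells, where the shares over all genes compared were 6.17% and 3.28%. BRCA1, which acts in homologous recombination, had 25.7, 23.7 and 21.8 rescaled TPM in the BT-549 cells of the IRF1 experiment, 19.97, 19.3 and 22.1 in those of the PBRM1 experiment, and 211, 223 and 218 in MDA-MB-436 cells. BRCA1 transcript was thus 9.15-fold and 10.6-fold higher in the BRCA1 mutant line, and the values do not separate mutant from intact transcript. CDKN2B, an inhibitor of CDK4 and CDK6, was at 37.1 ± 1.44 and 128 ± 4.45 in BT-549 cells and 7.44 ± 0.304 in MDA-MB-436 cells. RB1, which restrains entry into S phase, was not called, at 12.7 ± 1.10, 16.3 ± 1.10 and 13.0 ± 1.35. The median difference over the 12 genes was -0.32 against the IRF1 experiment and -0.51 against the PBRM1 experiment.

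Keratins were called in both directions, with KRT8 and KRT18 higher in MDA-MB-436 cells. KRT8, a keratin of simple epithelia, had 1.28, 1.53 and 1.42 rescaled TPM in the IRF1 experiment, 3.19, 3.55 and 3.73 in the PBRM1 experiment, and 545, 519 and 548 in MDA-MB-436 cells. All MDA-MB-436 values lay far above every BT-549 value, a difference of 7.80 ± 0.05 and 6.91 ± 0.06. KRT18, its filament partner, was at 13.7 ± 1.14 and 12.5 ± 0.803 in BT-549 cells and 436 ± 9.58 in MDA-MB-436 cells, 31.9-fold and 34.9-fold higher. KRT7, a keratin of ductal epithelium, was the reverse, with 132, 128 and 124, then 96.9, 108 and 106 in BT-549 cells, and 2.77, 4.13 and 4.68 in MDA-MB-436 cells. The basal keratins KRT5 and KRT14 did not exceed 1.23 and the luminal KRT19 did not exceed 0.901 in any library. Of 24 keratins, 10 were compared, 2 were called higher in each line, and none differed between the BT-549 groups. The shares over all genes compared were 6.17% for MDA-MB-436 and 3.28% for BT-549.

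Of 33 epithelial junction genes compared, 8 were higher in MDA-MB-436 cells and 0 in BT-549 cells, with 1 called between the BT-549 groups. Against the PBRM1 experiment alone the counts were 9 and 2. The median difference was 1.10 and 1.02 against 0.27 and 0.17 for all genes. In 21 of the 33 all MDA-MB-436 values lay above all 6 BT-549 values, which held for 44.2% of all genes compared. PKP2, a desmosomal plakophilin, had 24.6, 24.8 and 26.5 rescaled TPM in MDA-MB-436 cells and at most 0.0463 in the 6 BT-549 libraries. DSP, the desmoplakin that ties desmosomes to keratin, was at 26.1 ± 0.486 in MDA-MB-436 cells and 1.81 ± 0.185 and 2.16 ± 0.132 in BT-549 cells. CLDN3, a tight junction claudin, was at 9.76 ± 2.24 in MDA-MB-436 cells and 0.682 ± 0.0403 and 0.0444 ± 0.0769 in BT-549 cells. EPCAM, the epithelial adhesion molecule, was at 5.31, 6.70 and 4.36 in MDA-MB-436 cells and at most 0.283 in BT-549 cells. The adherens junction gene CDH1, E-cadherin, was not part of this pattern, at 0.363, 0.272 and 0.344 in the IRF1 experiment, 3.15, 2.75 and 3.29 in the PBRM1 experiment and 0.0504, 0.274 and 0.427 in MDA-MB-436 cells. LLGL2, a basolateral polarity protein, reached 6.87 ± 0.719 in MDA-MB-436 cells against 0.333 ± 0.130 and 0.225 ± 0.0205.

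Among 15 luminal mammary genes compared, 3 were higher in MDA-MB-436 cells and 1 in BT-549 cells, with 0 called between the BT-549 groups. The shares over all genes compared were 6.17% and 3.28%. KRT8 and KRT18, counted above as keratins, were among the 3. Against the PBRM1 experiment alone 3 were higher in each line. The median difference was 0.28 against the IRF1 experiment and -1.16 against the PBRM1 experiment. FOXA1, a pioneer factor of the luminal lineage, was at 5.84, 6.30 and 6.02 in MDA-MB-436 cells and at most 0.262 in BT-549 cells. GATA3, the other luminal factor, was low throughout, at 2.12 ± 0.128 in MDA-MB-436 cells and 0.0994 ± 0.0265 and 0.148 ± 0.0353 in BT-549 cells, and was not called. TBX3, a T-box repressor of mammary progenitors, was at 70.9 ± 2.99 and 65.1 ± 2.40 in BT-549 cells and 10.1 ± 0.783 in MDA-MB-436 cells. Among 24 basal and myoepithelial genes compared, 2 were higher in MDA-MB-436 cells and 4 in BT-549 cells, and 3 differed between the BT-549 groups. The inhibitor of DNA binding ID4 had 29.3, 28.1 and 29.1, then 97.2, 88.2 and 92.5 in BT-549 cells, and was listed at 0 in the 3 MDA-MB-436 libraries. FOXC1, a forkhead factor of basal-like tumours, was at 54.5 ± 2.17 and 102 ± 4.67 in BT-549 cells and 12.3 ± 0.218 in MDA-MB-436 cells. TRIM29 was at 12.3 ± 0.968 in MDA-MB-436 cells and did not exceed 0.206 in BT-549 cells.

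**Figure D2:**
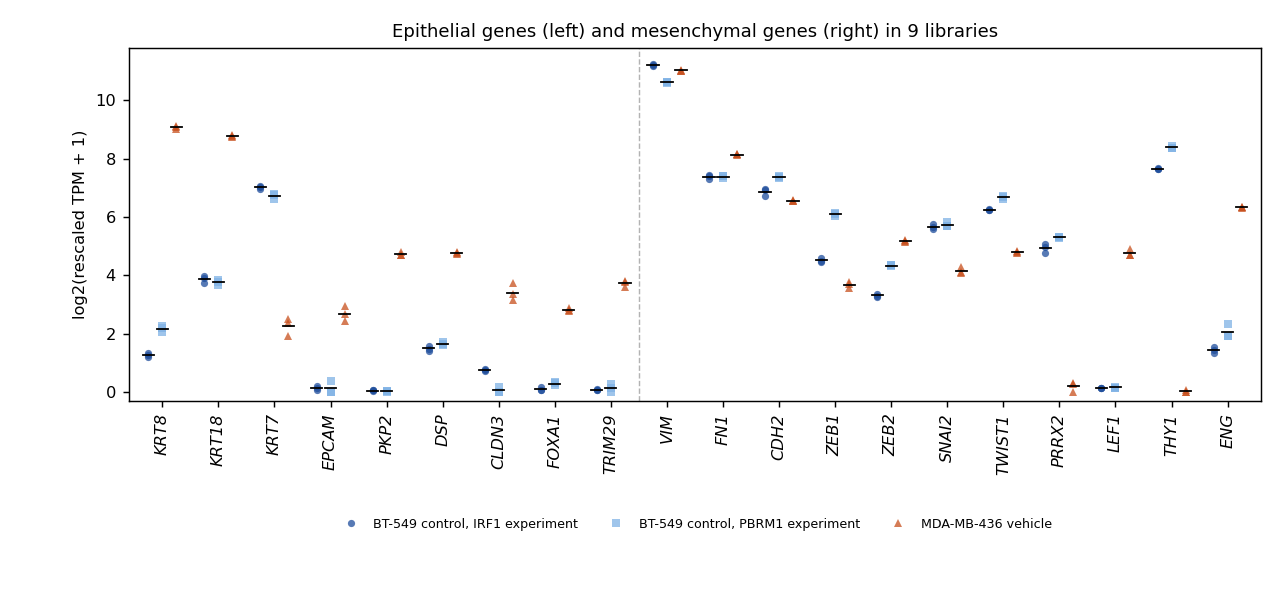
Level of 9 epithelial and 11 mesenchymal or EMT genes as log2(rescaled TPM + 1) in each library (points) with group means (bars), for BT-549 controls of the IRF1 experiment (circles) and the PBRM1 experiment (squares) and for MDA-MB-436 vehicle (triangles). The MDA-MB-436 points for KRT8 and KRT18 lie far above BT-549, KRT7 and THY1 are reversed, and VIM, FN1 and CDH2 lie close together in all 3 groups.

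The core mesenchymal genes were shared by the lines. VIM, the vimentin gene, had 2404, 2358 and 2278 rescaled TPM in the IRF1 experiment, 1537, 1560 and 1580 in the PBRM1 experiment and 2065, 2117 and 2069 in MDA-MB-436 cells, which lay between the BT-549 groups. FN1, fibronectin, was at 165 ± 8.60 and 165 ± 5.24 in BT-549 cells and 279 ± 3.41 in MDA-MB-436 cells, and CDH2, N-cadherin, at 116 ± 9.97, 164 ± 5.04 and 92.7 ± 1.70. None of these 3 genes was called. The EMT factors ZEB1, ZEB2, SNAI2 and TWIST1 were not called either. ZEB1 was at 21.8 ± 1.27 and 67.1 ± 2.13 in BT-549 cells and 11.8 ± 0.850 in MDA-MB-436 cells, and ZEB2 at 8.93 ± 0.329 and 19.1 ± 0.337 against 34.9 ± 1.16. SNAI2 was at 49.8 ± 2.87 and 52.0 ± 2.81 against 16.9 ± 1.21, and TWIST1 at 74.7 ± 0.965 and 101 ± 3.14 against 26.9 ± 0.660.

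Other mesenchymal and developmental genes separated the lines. Of 35 mesenchymal markers compared, 10 were higher in BT-549 cells, 2 were higher in MDA-MB-436 cells and 3 differed between the BT-549 groups. THY1, a surface glycoprotein of fibroblasts, had 197, 199 and 204, then 330, 343 and 325 in BT-549 cells, and 0, 0 and 0.0523 in MDA-MB-436 cells. IGFBP7, a secreted IGF-binding protein, was at 154 ± 7.64 and 147 ± 2.99 in BT-549 cells and 2.04 ± 0.363 in MDA-MB-436 cells, 75.6-fold and 72.0-fold higher in BT-549. MGP, the matrix Gla protein, was at 16.5 ± 1.996 and 64.9 ± 0.334 against 0.0791 ± 0.137. Among the 2 genes higher in MDA-MB-436 cells was ENG, a TGF-beta coreceptor, at 79.1 ± 0.141 against 1.74 ± 0.199 and 3.19 ± 0.753.

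Of the 27 EMT transcription factors compared, 7 were higher in BT-549 and 5 in MDA-MB-436 cells, and none differed between the BT-549 groups. The shares over all genes compared were 3.28% and 6.17%. The homeobox factor PRRX2 had 26.3, 29.9 and 32.7, then 38.6, 39.1 and 37.6 in BT-549 cells, and 0.225, 0.203 and 0 in MDA-MB-436 cells. SIX2 was at 28.0 ± 1.39 and 35.2 ± 1.67 against 1.25 ± 0.273. LEF1, a nuclear partner of beta-catenin, was the reverse, with 28.8, 25.01 and 24.9 in MDA-MB-436 cells and at most 0.135 in BT-549 cells. The homeobox factors MSX2 and MSX1 were at 11.6 ± 1.25 and 24.1 ± 2.42 in MDA-MB-436 cells, and MSX2 did not exceed 0.0163 in BT-549 cells while MSX1 was at 2.89 ± 0.298 and 4.002 ± 1.01. FOXF2, a forkhead factor, was at 16.7 ± 1.30 against 0.451 ± 0.0441 and 0.419 ± 0.138.

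Of 21 cadherins and protocadherins compared, 6 were higher in BT-549 cells and 0 in MDA-MB-436 cells, with 2 called between the BT-549 groups. CDH11, the cadherin of osteoblasts and fibroblasts, had 69.2, 64.9 and 65.8, then 90.3, 85.7 and 91.4 in BT-549 cells, and 0, 0.0628 and 0.0881 in MDA-MB-436 cells. CDH3, the P-cadherin of basal epithelium, was at 63.1 ± 4.77 and 106 ± 4.04 against 1.42 ± 0.360, a difference of -4.73 ± 0.14 and -5.48 ± 0.13. CDH6 was at 11.5 ± 0.257 and 21.2 ± 0.321 against 0.00790 ± 0.0137, and PCDH18, at 8.25 ± 0.4497 and 19.0 ± 0.728, was listed at 0 in the MDA-MB-436 libraries. PCDH1 differed 7.39-fold between the BT-549 groups, at 17.8 ± 1.79 and 132 ± 1.77, with 0.465 ± 0.0548 in MDA-MB-436 cells.

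Of 32 immunoglobulin-type and other adhesion molecules compared, 6 were higher in MDA-MB-436 cells and 2 in BT-549 cells, and 3 differed between the BT-549 groups, while against the PBRM1 experiment alone 6 were higher in each line. L1CAM, a neural adhesion molecule encoded on chromosome X (GRCh38 chrX:153861514-153886174, minus strand), had 4.12, 4.42 and 4.13 in the IRF1 experiment, 4.29, 4.03 and 4.71 in the PBRM1 experiment, and 551, 556 and 573 in MDA-MB-436 cells. The BT-549 groups overlapped each other and lay 133-fold and 129-fold below MDA-MB-436. PODXL, a sialomucin of podocytes, was at 207 ± 4.34 against 3.92 ± 0.250 and 15.9 ± 0.381, and JAM3, a junctional adhesion molecule, at 20.9 ± 0.801 against 0.0693 ± 0.0126 and 0.0407 ± 0.0469. SDC2, a heparan sulfate proteoglycan of the cell surface, was at 60.0 ± 1.98 against 4.17 ± 0.321 and 5.37 ± 0.247. NCAM2 and ICAM5 were the 2 higher in BT-549 cells, at 8.90 ± 0.189 and 23.4 ± 1.17 against 0.0768 ± 0.0231, and 10.6 ± 0.4501 and 25.5 ± 1.36 against 1.05 ± 0.298.

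Integrins, the receptors for matrix, differed by subunit. Of 15 compared, 4 were higher in MDA-MB-436 cells and 2 in BT-549 cells, and 1 differed between the BT-549 groups. The shares over all genes compared were 6.17% and 3.28% between the lines. ITGB1, the beta subunit shared by most collagen, laminin and fibronectin receptors, had 779, 755 and 701, then 1186, 1218 and 1243 in BT-549 cells, and 143, 151 and 142 in MDA-MB-436 cells. ITGA1 and ITGA2, the alpha subunits of collagen receptors that pair with ITGB1, went the other way, at 8.03 ± 0.845 and 15.1 ± 0.160 in MDA-MB-436 cells and at most 0.118 in any BT-549 library. ITGB4, the hemidesmosomal subunit that binds laminin with ITGA6, was at 58.8, 49.9 and 57.8 in MDA-MB-436 cells against 0.408, 0.392 and 0.494 and 6.30, 5.51 and 5.61, so that the BT-549 groups also differed. ITGA6 was not called, at 188 ± 2.81 against 75.5 ± 3.36 and 85.8 ± 2.75. ITGB8 was at 22.5 ± 1.41 against 0.789 ± 0.0230 and 1.24 ± 0.152.

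Of 44 collagens, 26 were compared, and 8 were higher in BT-549 cells, 1 was higher in MDA-MB-436 cells and 5 differed between the BT-549 groups, 3 of them among the 9 called between the lines. Summed over the list, collagens reached 1974 to 2075 rescaled TPM in the IRF1 experiment, 6048 to 6177 in the PBRM1 experiment and 355 to 384 in MDA-MB-436 cells. COL1A1, the alpha-1 chain of type I collagen (chr17:50183289-50201632, minus strand), had 390.0, 443 and 381, then 525, 543 and 524 in BT-549 cells, and 1.03, 1.60 and 1.95 in MDA-MB-436 cells. COL1A2, the other chain of type I collagen, had 448, 467 and 439.5, then 1224, 1199 and 1197 in BT-549 cells, and was listed at 0 in all 3 MDA-MB-436 libraries. COL3A1, type III collagen, was at 46.4 ± 3.18 and 350 ± 2.68 in BT-549 cells and 3.02 ± 0.434 in MDA-MB-436 cells, so the BT-549 groups themselves differed 7.56-fold. COL15A1 differed 9.99-fold between the BT-549 groups, at 145 ± 14.4 and 1445 ± 12.9, and was at 0.462 ± 0.171 in MDA-MB-436 cells. The basement membrane collagen COL4A2 was at 200 ± 3.29 and 512 ± 6.93 against 14.3 ± 0.733. COL7A1, the anchoring fibril collagen beneath epithelia, was the 1 collagen higher in MDA-MB-436 cells, with 27.1, 31.9 and 31.5 against at most 0.963.

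**Figure D3:**
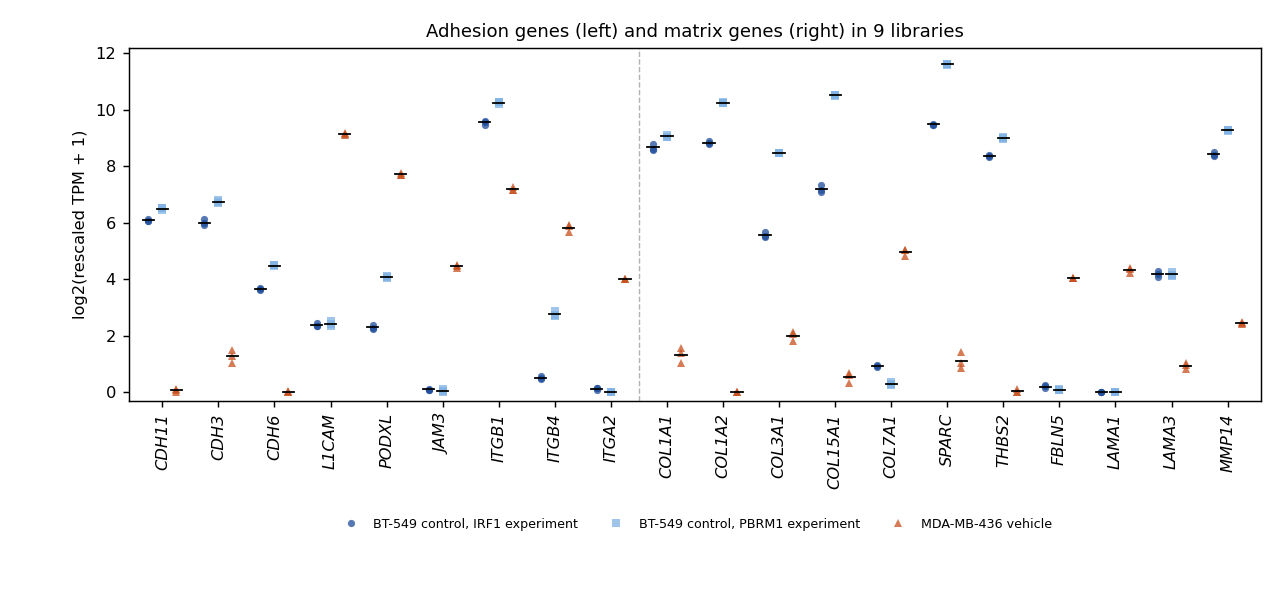
Level of 9 adhesion and 11 matrix genes as log2(rescaled TPM + 1) in each library (points) with group means (bars), groups as circles (BT-549, IRF1 experiment), squares (BT-549, PBRM1 experiment) and triangles (MDA-MB-436 vehicle). The BT-549 squares lie above the circles for most collagens, and the MDA-MB-436 triangles lie near 0 for CDH11, COL1A2 and THBS2 and above both BT-549 groups for L1CAM, COL7A1 and FBLN5.

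Matricellular proteins and matrix enzymes were called mostly in the same direction as the collagens. Of 51 matrix glycoproteins and proteoglycans compared, 15 were higher in BT-549 cells and 4 in MDA-MB-436 cells, and 6 differed between the BT-549 groups. SPARC, a collagen-binding glycoprotein, had 706, 718 and 702, then 3064, 3108 and 3096 in BT-549 cells, and 1.68, 0.825 and 1.07 in MDA-MB-436 cells. THBS2, a thrombospondin, was at 326 ± 6.40 and 508 ± 10.1 against 0.0276 ± 0.0479, and THBS3 at 45.7 ± 0.737 and 118 ± 2.36 against 1.07 ± 0.216. FBLN5, which organizes elastic fibres, was the reverse, at 15.3 ± 0.0625 in MDA-MB-436 cells against 0.149 ± 0.0415 and 0.0630 ± 0.0226. NOV, a matricellular protein of the CCN family, was at 238 ± 8.12 against 16.5 ± 1.40 and 17.2 ± 1.38. Of the laminin alpha chains, LAMA1 was at 19.2 ± 1.32 in MDA-MB-436 cells and at most 0.00790 in BT-549 cells, and LAMA3, the epithelial chain that ITGB4 complexes bind, was at 17.2 ± 1.36 and 17.0 ± 0.893 in BT-549 cells and 0.921 ± 0.139 in MDA-MB-436 cells. These were the 2 genes called of 18 in the basement membrane list, 1 in each direction. That is near the shares over all genes compared, 6.17% and 3.28%, so the list as a whole did not stand out.

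Of 55 matrix enzymes and inhibitors compared, 14 were higher in BT-549 cells, 5 were higher in MDA-MB-436 cells and 2 differed between the BT-549 groups. MMP14, the membrane-bound collagenase, had 338, 362 and 330, then 622, 617 and 608 in BT-549 cells, and 4.48, 4.31 and 4.62 in MDA-MB-436 cells. The secreted collagenase MMP1 was at 19.6 ± 1.84 and 66.9 ± 1.19 against 1.63 ± 0.289. LOX, which crosslinks collagen, was at 250 ± 20.6 and 580 ± 2.90 against 29.8 ± 0.852, whereas its relative LOXL4 was at 19.4 ± 1.45 in MDA-MB-436 cells against 0.0424 ± 0.0241 and 0.109 ± 0.0367. HAS2, a hyaluronan synthase, was at 12.7 ± 0.946 and 29.2 ± 0.324 against 0.0701 ± 0.121.

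IFN-stimulated genes were lower in MDA-MB-436 cells, and the BT-549 groups differed widely from each other. Of 67 type I IFN-stimulated genes compared, 25 were higher in BT-549 cells and 0 in MDA-MB-436 cells, while 31 were called between the BT-549 groups, all higher in the PBRM1 experiment, including 16 of the 25. In 57 of the 67 all MDA-MB-436 values lay below all 6 BT-549 values, which held for 29.6% of all genes compared. The median difference was -1.34 against the IRF1 experiment and -3.31 against the PBRM1 experiment, and the median between the BT-549 groups was 1.79. Against the PBRM1 experiment alone the rule called 45 of the 67 genes, with 6.82% of all genes compared called higher in BT-549. The size of the IFN difference between the lines thus depended on which BT-549 control was used.

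The ISRE is shown here in 4 of the called genes, 3 of the 5 largest differences and ISG15, because they hold the core motif. Each sequence is the 250 bases before the RefSeq start of the gene on GRCh38.p14, 5′ to 3′ on the gene's strand, with every match to the core motif, GAAA and GAAA separated by any 2 bases, in capitals. Both strands were searched, and all matches shown lie on the gene's strand.
IFITM1: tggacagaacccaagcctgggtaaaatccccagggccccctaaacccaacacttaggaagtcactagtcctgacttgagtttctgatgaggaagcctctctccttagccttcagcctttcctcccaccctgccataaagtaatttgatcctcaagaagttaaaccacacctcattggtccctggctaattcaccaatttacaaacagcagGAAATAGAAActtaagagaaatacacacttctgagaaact
IFI6: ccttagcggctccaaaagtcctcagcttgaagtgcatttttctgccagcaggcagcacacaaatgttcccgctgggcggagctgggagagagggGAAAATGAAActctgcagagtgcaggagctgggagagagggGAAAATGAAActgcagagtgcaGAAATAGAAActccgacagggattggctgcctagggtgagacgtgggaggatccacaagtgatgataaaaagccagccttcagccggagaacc
BST2: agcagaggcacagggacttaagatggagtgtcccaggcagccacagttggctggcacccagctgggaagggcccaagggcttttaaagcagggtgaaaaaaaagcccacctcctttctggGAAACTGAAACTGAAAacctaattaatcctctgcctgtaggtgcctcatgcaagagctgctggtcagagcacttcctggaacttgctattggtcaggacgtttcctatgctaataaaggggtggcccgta
ISG15: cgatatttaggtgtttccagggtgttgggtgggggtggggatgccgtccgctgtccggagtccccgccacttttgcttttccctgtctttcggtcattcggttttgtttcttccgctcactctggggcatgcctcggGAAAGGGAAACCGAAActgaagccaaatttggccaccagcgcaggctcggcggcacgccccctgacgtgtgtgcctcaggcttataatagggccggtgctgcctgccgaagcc
The windows lie at chr11:313790-314039 on the plus strand (IFITM1), chr1:27672193-27672442 on the minus strand (IFI6), chr19:17405631-17405880 on the minus strand (BST2) and chr1:1013247-1013496 on the plus strand (ISG15). The motif begins 40 bases before the start in IFITM1 and at 156, 115 and 93 bases in IFI6, and overlapping matches begin at 130 and 124 bases in BST2 and 113 and 107 bases in ISG15. A match was present in 14 of the 19 called type I genes that had a RefSeq promoter entry, of 25 in all, and in 16 of 34 with an entry that were compared but not called. Of all genes compared that had an entry, 3.33% (350 of 10524) held the motif in this window, and of 5 called collagens with an entry, 0 did.

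Antiviral effectors showed the largest IFN differences. IFITM1, a membrane protein that blocks virus entry, had 485, 522 and 666 rescaled TPM in the IRF1 experiment, 5298, 5384 and 5254 in the PBRM1 experiment, and 0.524, 1.42 and 2.66 in MDA-MB-436 cells. The BT-549 groups thus differed 9.53-fold, and both lay above MDA-MB-436, with differences of -7.86 ± 0.39 and -11.12 ± 0.37. MX1, a dynamin-like GTPase, had 144, 177 and 203, then 1108, 1110 and 1121, and 0.343, 0.870 and 0.465 in MDA-MB-436 cells. BST2, which tethers budding virus, was at 110 ± 22.9 and 705 ± 10.9 in BT-549 cells, and 0, 0 and 0.528 in MDA-MB-436 cells. IFI27 was at 84.2 ± 10.6 and 122 ± 3.33 in BT-549 cells, and 0, 0 and 0.285 in MDA-MB-436 cells, and was not called between the BT-549 groups. IFI6, a mitochondrial inhibitor of apoptosis, was at 2262 ± 243, 4166 ± 65.2 and 35.5 ± 5.63.

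The study itself followed 9 of these genes closely. Of the 9, 4 were higher in BT-549 cells and 5 differed between the BT-549 groups, with IDO1 in both counts. In each of the 9 the MDA-MB-436 values lay below all 6 BT-549 values, which held for 29.6% of all genes compared. PBRM1, WARS, DDX58 and IFIH1 were not called, and their differences from the IRF1 experiment turned positive with TPM as deposited. On that scale the called genes MUC1 (-0.26), IRF1 (-0.0) and ISG15 (-0.3) lost most of their difference from the IRF1 experiment. MUC1, the transmembrane mucin silenced in MDA-MB-436 cells elsewhere in the series, had 47.6, 52.2 and 56.9, then 132, 118 and 118 in BT-549 cells, and 7.28, 5.65 and 6.54 in un-induced MDA-MB-436 cells, a difference of -2.83 ± 0.12 and -4.05 ± 0.11. IRF1, the IFN-responsive factor, had 34.3, 35.4 and 37.4, then 109, 109 and 109, and 6.01, 5.14 and 5.25 in MDA-MB-436 cells. The ubiquitin-like ISG15 was at 560 ± 96.8 and 1087 ± 23.9 against 69.3 ± 10.2, 8.08-fold and 15.7-fold higher in BT-549. IDO1, the first enzyme of kynurenine synthesis, had 7.30, 7.62 and 10.0, then 70.6, 68.4 and 66.3 in BT-549 cells and was listed at 0 in MDA-MB-436 cells. PBRM1, a subunit of the PBAF chromatin remodeler, was at 49.8 ± 3.21 and 53.1 ± 1.20 against 26.97 ± 1.37 and was not called.

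Some IFN-pathway genes differed between the BT-549 groups and not, by the call rule, between the lines. WARS, the tryptophanyl-tRNA synthetase, was at 182 ± 6.41, 830 ± 8.28 and 127 ± 3.27. The cytosolic RNA sensors DDX58, which encodes RIG-I, and IFIH1, which encodes MDA5, were at 47.5 ± 3.44, 245 ± 6.43 and 23.8 ± 0.864, and at 24.9 ± 2.56, 108 ± 3.98 and 9.19 ± 0.957. In all 3 genes MDA-MB-436 cells lay nearer to the IRF1 experiment than to the PBRM1 experiment.

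**Figure D4:**
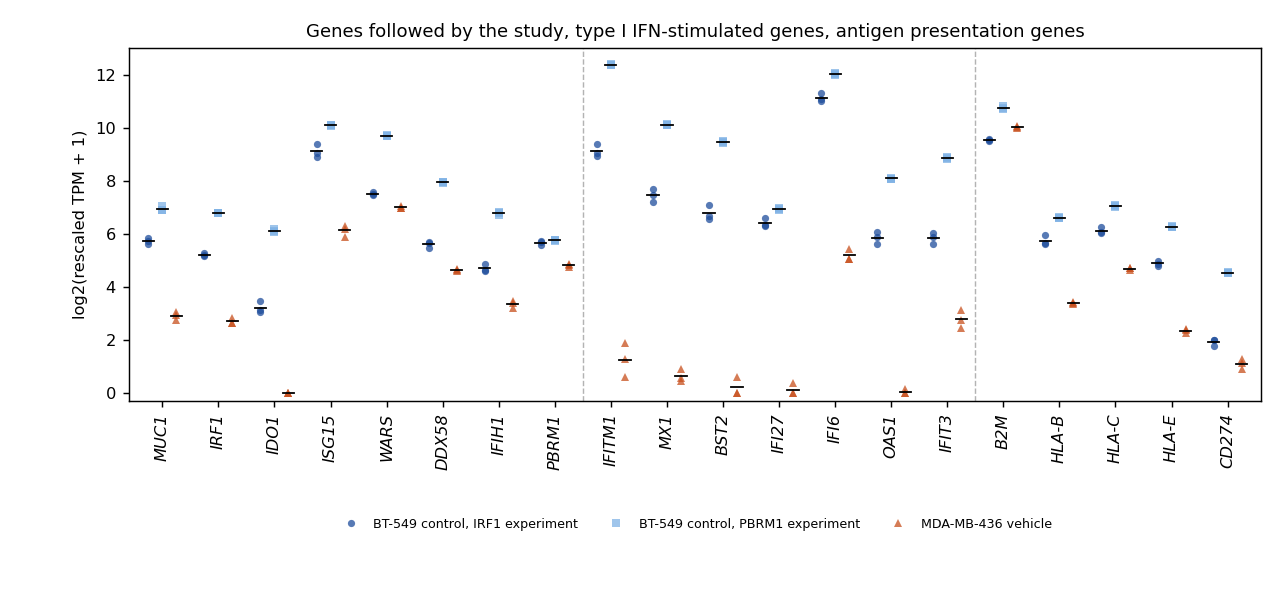
Level of MUC1, PBRM1 and 6 IFN-pathway genes on which the study centred, of 7 further type I IFN-stimulated genes and of 5 antigen presentation genes as log2(rescaled TPM + 1) in each library (points) with group means (bars), groups as circles (BT-549, IRF1 experiment), squares (BT-549, PBRM1 experiment) and triangles (MDA-MB-436 vehicle). MDA-MB-436 lies near 0 for IDO1, BST2, IFI27 and OAS1, and the squares lie above the circles for every gene shown except PBRM1, where they overlap.

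Other IFN lists gave similar pictures, in part because they share genes with those above. MX1 and ISG15 are also in the first list below, and IRF1 and IDO1 in the IFN-gamma list. Of 7 genes of a DNA damage resistance signature, a set of IFN-stimulated genes raised in treatment-resistant tumours, 6 were higher in BT-549 cells and 5 differed between the BT-549 groups. Over all genes compared the shares were 3.28% and 1.66%. OAS1, an activator of RNase L, was at 57.1 ± 8.97 and 272 ± 4.88 in BT-549 cells, and 0, 0.0963 and 0 in MDA-MB-436 cells. IFIT3 was at 56.7 ± 8.59 and 462 ± 14.6 against 5.94 ± 1.65. Of 37 IFN-gamma response genes compared, 9 were higher in BT-549 cells and 0 in MDA-MB-436 cells, with 17 called between the BT-549 groups. GBP1, a guanylate-binding GTPase, was at 36.9 ± 2.57 and 288 ± 9.68 against 1.68 ± 0.421, and CD274, which encodes PD-L1, was not called, at 2.79 ± 0.364, 22.1 ± 0.478 and 1.15 ± 0.288. The 20 IFN ligands were nearly silent, with 2 reaching the filter and a summed level of 2.02 to 3.16, 5.19 to 7.24 and 0.994 to 1.76 in the 3 groups.

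IFN sensors and signalling genes were mostly not called, with 5 of 37 higher in BT-549 cells, 1 higher in MDA-MB-436 cells and 6 called between the BT-549 groups. The shares over all genes compared were 3.28% and 6.17% between the lines, and IRF1, counted above, was among the 5. The nucleotidase SAMHD1 was at 104 ± 2.33 and 218 ± 3.32 against 20.4 ± 1.52, and the DNA sensor IFI16 at 91.3 ± 0.255 and 199 ± 6.88 against 20.8 ± 1.13. IRF3, a factor activated by nucleic acid sensors, differed little between the BT-549 groups, at 91.6 ± 1.28 and 87.2 ± 1.70, and was at 17.7, 20 and 23.5 in MDA-MB-436 cells, a difference of -2.12 ± 0.11 and -2.05 ± 0.11. IRF5 was the 1 gene higher in MDA-MB-436 cells, at 7.42 ± 0.852 against 0.236 ± 0.0463 and 0.324 ± 0.0492.

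Antigen presentation differed by component. Of 22 MHC class I and peptide loading genes compared, 5 were higher in BT-549 cells and 0 in MDA-MB-436 cells. The shares over all genes compared were 3.28% and 6.17%. None was called between the BT-549 groups, though the median difference between them was 1.03. Against the PBRM1 experiment alone 11 were higher in BT-549 cells. The summed list averaged 4763 and 11208 rescaled TPM in the BT-549 groups of the IRF1 and PBRM1 experiments and 4664 in MDA-MB-436 cells. HLA-B had 48.5, 49.3 and 60.5, then 96.9, 94.5 and 94.4 in BT-549 cells, and 9.73, 9.28 and 9.55 in MDA-MB-436 cells. HLA-E, a ligand of natural killer cell receptors, was at 28.6 ± 1.91 and 76.3 ± 0.858 against 4.08 ± 0.249, and PSMB8, an immunoproteasome subunit, at 8.42 ± 0.689 and 19.2 ± 0.511 against 0.930 ± 0.132. HLA-C was not called, with a difference of -1.45 ± 0.08 against the IRF1 experiment. Reads from HLA genes can be split among near-identical copies and alleles, so their levels are uncertain. B2M, the light chain of MHC class I, was at 745 ± 22.6 and 1728 ± 54.6 in BT-549 cells and 1044 ± 19.4 in MDA-MB-436 cells, between the BT-549 groups. The class II list had 5 of 15 genes compared and none called.

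Of 11 tryptophan and kynurenine genes compared, 2 were higher in BT-549 cells, among them IDO1, counted above, and 1 in MDA-MB-436 cells. Between the BT-549 groups 3 were called. The shares over all genes compared were 3.28% and 6.17% between the lines. Against the PBRM1 experiment alone 5 were higher in BT-549 cells and 1 in MDA-MB-436 cells. KYNU, kynureninase, was at 22.1 ± 1.66 and 58.1 ± 2.65 in BT-549 cells against 0.170 ± 0.147 in MDA-MB-436 cells. SLC7A5, the transporter of tryptophan and other large neutral amino acids, had 2467, 2411 and 2460 in MDA-MB-436 cells against 437, 423 and 432, and 582, 572 and 570 in BT-549 cells.

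Of 32 cytokines and chemokines compared, 6 were higher in each line and 8 differed between the BT-549 groups. The shares over all genes compared were 6.17% for MDA-MB-436 and 3.28% for BT-549. Against the PBRM1 experiment alone 14 were higher in BT-549 cells and 6 in MDA-MB-436 cells. The median difference was -0.32 against the IRF1 experiment and -1.62 against the PBRM1 experiment. Among the genes higher in MDA-MB-436 cells were 3 of the IL-1 family, with IL18 at 72.9, 81.2 and 70.3, IL1B at 43.3 ± 1.64 and IL1A at 16.2 ± 1.40, while each of the 3 was at most 1.10 in every BT-549 library. Chemokines were called in both lines. CXCL14, made by many epithelia, was at 15.99 ± 1.43 in MDA-MB-436 cells and at most 0.0185 in BT-549 cells. In the other direction, CXCL1, which attracts neutrophils, was at 329 ± 18.7 and 575 ± 22.9 against 3.58 ± 0.663, and CXCL5, at 88.2 ± 9.72 and 248 ± 7.01, was listed at 0 in MDA-MB-436 cells. CCL5, which attracts T cells, was at 33.7 ± 4.41 and 98.2 ± 0.914 against 1.07 ± 0.798. The EGF receptor ligands EREG and TGFA were higher in MDA-MB-436 cells, with EREG at 62.5 ± 4.23 against 0.0244 ± 0.0179 and 0.363 ± 0.0901, and TGFA at 18.8 ± 0.748 against at most 0.00716. Among 50 growth factor receptors and ligands compared, 6 were higher in MDA-MB-436 cells, 2 in BT-549 cells and 1 differed between the BT-549 groups. The shares over all genes compared were 6.17%, 3.28% and 1.66%, and the last 2 counts are near their shares. Against the PBRM1 experiment alone 7 were higher in MDA-MB-436 cells and 6 in BT-549 cells, so the lean depended on the control.

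HOX genes keep positional identity, and those called in each line lay in different clusters. Of 10 HOXA genes compared, 4 were higher in MDA-MB-436 cells and 0 in BT-549 cells, and of 5 HOXD genes the counts were 3 and 0. Of 8 HOXB genes 4 were higher in BT-549 cells and 0 in MDA-MB-436 cells, and of 9 HOXC genes the counts were again 4 and 0. The shares over all genes compared were 6.17% for MDA-MB-436 and 3.28% for BT-549. HOXD3, HOXD4 and HOXD8 did not exceed 0.131 in BT-549 cells and passed the filter only through MDA-MB-436. HOXB2, HOXB5 and HOXB6 did not exceed 0.995 in MDA-MB-436 cells and passed it only through BT-549. The number compared in a cluster thus depends on the same values as the calls. None of the 32 differed between the BT-549 groups. HOXB2 had 50.8, 49.0 and 44.3, then 49.0, 44.7 and 47.3 in BT-549 cells and was listed at 0 in MDA-MB-436 cells, and HOXC10 was at 78.9 ± 2.25 and 110 ± 3.60 against 3.99 ± 0.431. HOXD4 had 32.5, 38.1 and 38.1 in MDA-MB-436 cells and at most 0.0637 in BT-549 cells, and HOXA7 was at 16.04 ± 1.36 against 0.537 ± 0.105 and 0.163 ± 0.135.

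**Figure D5:**
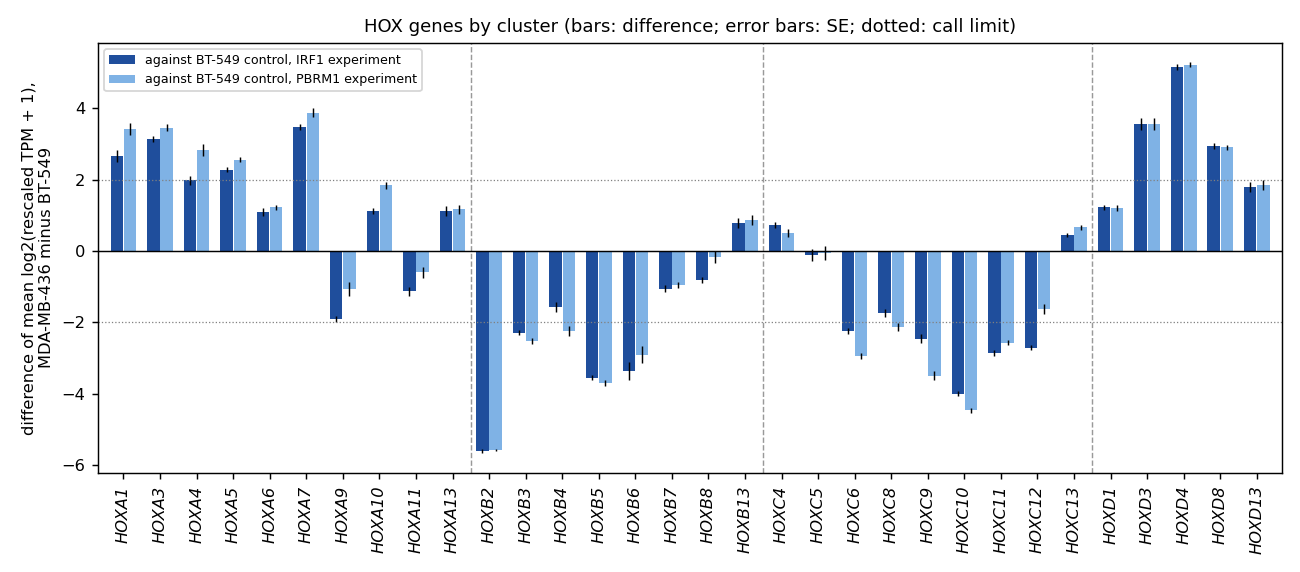
Difference in mean log2(rescaled TPM + 1), MDA-MB-436 minus BT-549, for 32 HOX genes in cluster order, against BT-549 controls of the IRF1 experiment (dark bars) and the PBRM1 experiment (light bars), with SE from triplicate cultures and the call limit of 2 dotted. Genes past the upper limit in both comparisons lie in HOXA and HOXD, and genes past the lower limit in both lie in HOXB and HOXC.

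Over all genes, the largest differences included genes outside the lists of lineage and IFN. Higher in MDA-MB-436 cells were the cancer-testis antigens MAGEA4, with 603, 614 and 608, and MAGEA10, with 134, 130 and 128, both listed at 0 in the 6 BT-549 libraries. Of 46 cancer-testis genes with values, 6 were compared, and 3 were higher in MDA-MB-436 cells and none in BT-549 cells. The shares over all genes compared were 6.17% and 3.28%. These 3, MAGEA4, MAGEA10 and DDX43, were listed at 0 in BT-549 cells and passed the filter only through MDA-MB-436, so their count adds no support. Against the IRF1 experiment alone 1 cancer-testis gene was higher in BT-549 cells. MGST1, a microsomal glutathione transferase, was at 599 ± 10.1 in MDA-MB-436 cells and at most 0.0932 in BT-549 cells, and the calcium-binding S100A16 was at 212 ± 7.63 against 0.112 ± 0.0586 and 0.117 ± 0.107. Higher in BT-549 cells were ID3, an inhibitor of DNA binding, at 446 ± 34.8 and 504 ± 8.93 against 1.004 ± 0.455, and GJA1, the gap junction protein connexin 43, at 150 ± 9.67 and 361 ± 9.08 against 0.591 ± 0.267. SPON2, a secreted matrix protein, was at 659 ± 52.0 and 842 ± 31.8 against 5.78 ± 0.554. GDF15, a stress-induced cytokine of the TGF-beta family, had 144, 136 and 154, then 980.0, 979 and 940, and 1.24, 0 and 0.175 in MDA-MB-436 cells.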

How the data were processed

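Libraries were made from total RNA with a stranded mRNA kit. Per the labels, STAR, GRCh38 and DESeq2 were used, with no version, annotation or counting tool given in the sources used here. Values were deposited by the authors as TPM in 3 tables. In 3 result tables, the fold changes and p-values are the authors' own comparisons and were not used, and only their deposited mean normalized counts, a signal pooled over control and silenced libraries, were summed, to 63114292 (IRF1), 27111321 (PBRM1) and 11858741 (MDA-MB-436). TPM keeps no read depth, so the depth of each library is unknown and no counting interval is given.

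Each column was rescaled to 1000000 without short noncoding RNAs, after 47 symbols altered by a spreadsheet in the PBRM1 table were restored. Columns of that table name the group but not the replicate. Means, SDs and log2(TPM + 1) differences were computed with pandas 2.3.3 and numpy 2.4.6, the calls were tested on simulated data, and no 2 of the 9 columns were identical. The genes eligible to be named were the 9 followed by the study, defining lineage genes, up to 5 called genes per list and direction (the largest by the smaller of the 2 differences, with a mean of at least 5), and the 12 largest differences per direction, of which a part is printed and some are not reported here. CD68 was named after its values were seen. Other scalings, pseudocounts, filters, limits and omitted libraries were tried. Members and lists were chosen with earlier results of these data known. Gene positions are from GENCODE release 29 and promoters from RefSeq (GRCh38.p14).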

Additional observations from a re-analysis of the deposited data

How the results depend on the processing

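No paired analysis was possible because the values come from no test and the groups are different lines or experiments. Of 176 counts recomputed under other settings or without 1 library, 148 stayed within 1.5 times their value. They came from 9 settings that each omitted 1 library and 11 others. Some could not change, such as the count between the BT-549 groups when an MDA-MB-436 library was omitted, and dropping the filter repeated every main count. List counts pool both directions, so a list whose directions exchanged could stay within the limit. Without 1 library, type I IFN-stimulated genes called numbered 23 to 26, genes called higher in BT-549 458 to 473 and higher in MDA-MB-436 863 to 886, MHC class I genes 4 to 5 and genes between the BT-549 groups 230 to 245. With TPM as deposited, where short noncoding RNAs stay in the total and the median difference was 2.28 and 1.69, 5448 genes were higher in MDA-MB-436 and 50 in BT-549, with 19 junction, 10 type I IFN-stimulated (8 higher in BT-549 and 2 in MDA-MB-436) and 0 MHC class I genes called. Mesenchymal markers called were then 10 higher in MDA-MB-436 and 4 in BT-549, against 2 and 10. On that scale the difference from the IRF1 experiment turned positive for 9 called genes named here, SAMHD1 (0.33), IFI16 (0.53), IRF3 (0.49), HLA-B (0.22), FOXC1 (0.50), CDKN2B (0.33), TCF4 (0.05), ITGB1 (0.34) and YWHAZ (0.26), and for 14 named genes that were not called, among them VIM (2.53), CDH2 (2.31), WARS (2.14), PBRM1 (1.68), DDX58 (1.57), ZEB1 (1.52), TWIST1 (1.15), HLA-C (1.14), IFIH1 (1.06) and SNAI2 (1.04). Median-of-ratios scaling (median difference -0.03 and -0.01) and quantile normalization (-0.01 and 0.07) each called 8 MHC class I genes. They called 595 genes higher in BT-549 each, and 700 and 706 higher in MDA-MB-436. A pseudocount of 0.1 called 876 genes higher in BT-549, 1394 higher in MDA-MB-436, 15 collagens and 511 genes between the BT-549 groups. A mean of at least 5 left 463 genes higher in MDA-MB-436 and 5 junction genes. The PBRM1 experiment alone as control gave 965 genes higher in BT-549, 14 collagens, 45 type I IFN-stimulated and 11 MHC class I genes. A limit of 1 called 1552 and 2787 genes higher in BT-549 and MDA-MB-436, with 16 junction, 19 mesenchymal, 15 collagen and 11 MHC class I genes. A limit of 3 called 185 and 330, with 2 junction, 14 type I IFN-stimulated and 1 MHC class I genes. The causes were not tested beyond what each setting changes by construction.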

Other observations

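The following features were chosen after their values were seen. Genes called higher in MDA-MB-436 cells made up 59 of 469 compared genes of chromosome X (12.6%), against 7 (1.49%) higher in BT-549 cells, among 13857 genes placed on chromosomes. They included 6 genes of the BEX and TCEAL families that were consecutive among the genes compared. The lowest coordinates of the first and last of them were chrX:103062651 and chrX:103376323 (RefSeq, GRCh38.p14). TCEAL8 was at 155 ± 18.5 (SD, n = 3) rescaled TPM in MDA-MB-436 cells against 4.31 ± 0.242 and 5.16 ± 1.19 in BT-549 cells, TCEAL9 at 133 ± 8.97 against 3.52 ± 0.543 and 5.56 ± 0.549, and BEX1 at 144 ± 8.23 against 20.5 ± 0.591 and 6.71 ± 1.44. A further run of 5 genes higher in MDA-MB-436 cells lay in the imprinted region of chromosome 15. NDN, which encodes necdin and is expressed from the paternal allele, had 17.6, 16.5 and 16.2 in MDA-MB-436 cells and was listed at 0 in the 6 BT-549 libraries, and MKRN3 was at 7.30 ± 0.530 against 0.0345 ± 0.0195 and 0.0282 ± 0.0489. In the other direction, NF2, the tumour suppressor merlin, had 69.8, 72.3 and 67.0, then 69.8, 69.9 and 70.9 in BT-549 cells, and 0, 0.0949 and 0 in MDA-MB-436 cells. Copy number, methylation and allele were not measured here.

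In all, 12 genes above 20 rescaled TPM in both BT-549 groups were listed at 0 in the 3 MDA-MB-436 libraries, among them COL1A2, CXCL5, HOXB2, ID4, PTN, SFRP2, UCP2 and XAF1. Another 13 genes above 20 in MDA-MB-436 cells were listed at 0 in the 6 BT-549 libraries, among them MAGEA4, MAGEA10, MAEL and MAL. None of 25 housekeeping genes was at 0 in any library.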
